A study of Arabidopsis thaliana with 5 samples.

Results

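Nuclear factor Y (NF-Y) is a transcription factor made of the subunits NF-YA, NF-YB and NF-YC. NF-YB and NF-YC pair through a histone-like fold, and NF-YA joins the pair and gives it its affinity for the CCAAT box of promoters. Plants carry a family of genes for each subunit, and family members act in flowering, seed and embryo development, drought and heat responses and seedling growth in light. The genes described here are the 36 nuclear protein-coding genes, of 27432 in all, whose symbol or synonym in the gene table is NF-YA, NF-YB or NF-YC followed by a number. They comprise 10 NF-YA, 13 NF-YB and 13 NF-YC genes. LEC1, the embryo regulator, entered as NF-YB9.

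Chromatin immunoprecipitation sequencing (ChIP-seq) with an anti-GFP antibody recorded the binding sites of TREE1, fused to green fluorescent protein (GFP), in Arabidopsis thaliana. The series title names TREE1 with EIN3, a transcription factor that drives responses to the gaseous hormone ethylene, in transcriptional repression. All libraries came from shoots of 3-day-old seedlings grown in the dark, from 1 line that carried the fusion under the TREE1 promoter. Seedlings received 10 ppm ethylene for 4 h (2 libraries) or air for 4 h (1 library), and each treatment had 1 input library. The labels do not say whether this line kept its own TREE1, and no untagged line was analysed here. The ethylene libraries held 5884897 and 9459860 tags after duplicate removal, and the air library held 9325092. In whole shoots, binding in more cells and stronger binding per cell cannot be told apart.

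The family was selected on earlier peak calls of these libraries, in which NF-YC2 stood out, and its members were chosen by name. A gene counted as bound in a library when the summit of a peak fell within a window around one of its ends, reaching 1000 bp outwards and 200 bp into the gene. The peak lists and the fold enrichment of each peak over its local background are the authors' values. The libraries differed in depth and the treatments in their input, so folds were not compared directly between lists, and many are also given as a rank or percentile within the list, where 100 is the strongest peak. Because the family was selected on them, calls and folds are described without a test. Air was represented by 1 library, so differences between ethylene and air lack a replicate check. The gene table gave no strand, so gene starts and gene ends are not told apart.

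TREE1-GFP summits lay at NF-Y genes of every subunit class, and the strongest sites were at NF-YC2 and NF-YA9. Of the 36 genes, 16 were bound in ethylene library 1, 19 in ethylene library 2 and 17 in air. The corresponding shares were 44.4, 52.8 and 47.2%, against 36.3, 36.4 and 33.9% of all coding genes. In all libraries together 13 NF-Y genes were bound (36.1%, against 21.2% of all coding genes), 22 were bound in at least 1 library (61.1% against 50.2%), and 14 in none (38.9% against 49.8%). Both ethylene libraries bound 15 of the 36 (41.7%, against 27.1%).

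**Figure D1:**
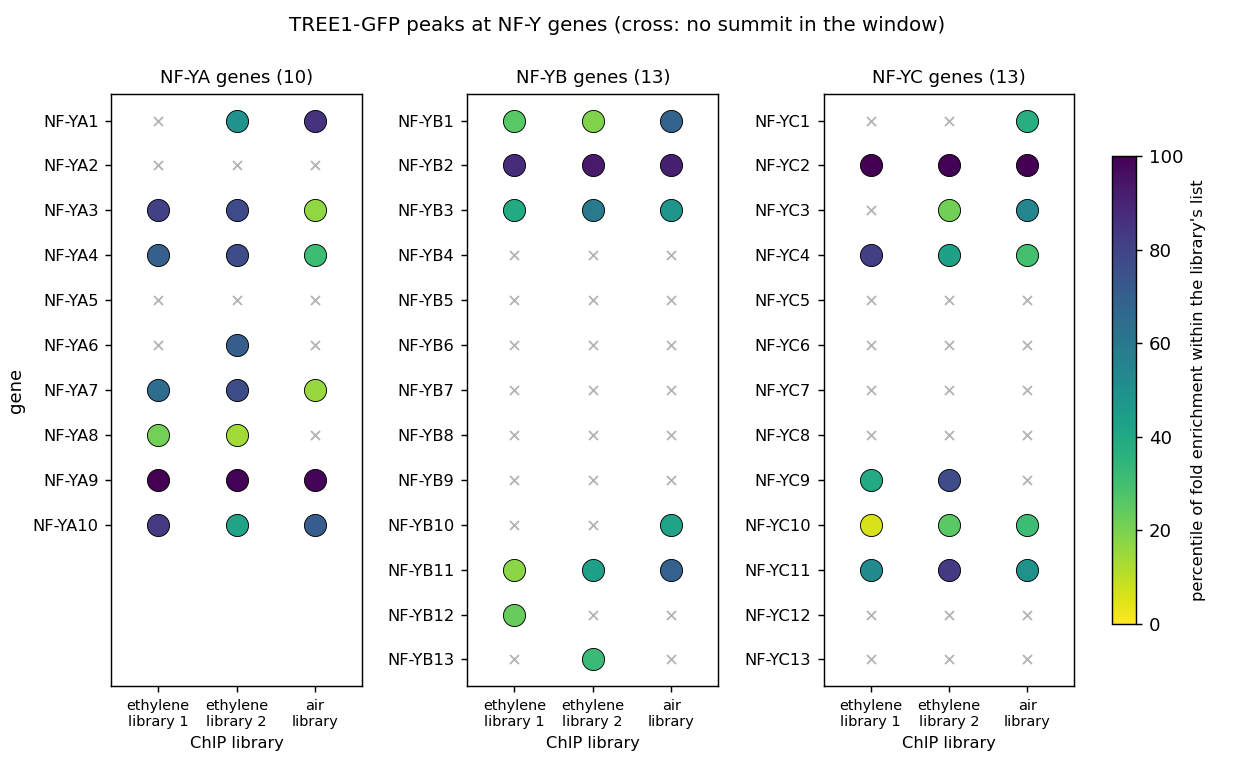
Each row is an NF-Y gene and each column a ChIP library, with ethylene libraries 1 and 2 left of air. The colour of a circle gives the percentile of the strongest peak's fold within that library's list, and a cross marks a gene with no summit in the window. NF-YC2 and NF-YA9 are dark in every column, and 14 genes have crosses throughout.

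The NF-YA genes had the highest bound share in each library, a difference between classes that was not tested. In ethylene library 1, 6 of 10 NF-YA genes were bound, against 5 of 13 NF-YB and 5 of 13 NF-YC genes. In ethylene library 2 the counts were 8 of 10 NF-YA, 5 of 13 NF-YB and 6 of 13 NF-YC genes, and in air they were 6, 5 and 6. The NF-YB share was 38.5% in each library, close to the share of all coding genes. Each class counts few genes, so a single gene moves the NF-YA share by 10 percentage points. When only peaks with a score of at least 100 were kept, where the score is 10 times the negative log10 of the authors' p-value, 5, 4 and 3 NF-YA genes stayed bound in ethylene library 1, ethylene library 2 and air. The NF-YB counts were then 2, 2 and 1 (15.4, 15.4 and 7.69%) and the NF-YC counts 1, 3 and 2 (7.69, 23.1 and 15.4%). Of all coding genes, 15.6, 16.2 and 13.1% were bound. NF-YA9, NF-YB2 and NF-YC2, 1 gene of each class, were the NF-Y genes bound in all libraries at that score. They make up 8.33% of the NF-Y genes, close to the 6.52% of all coding genes.

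**Figure D2:**
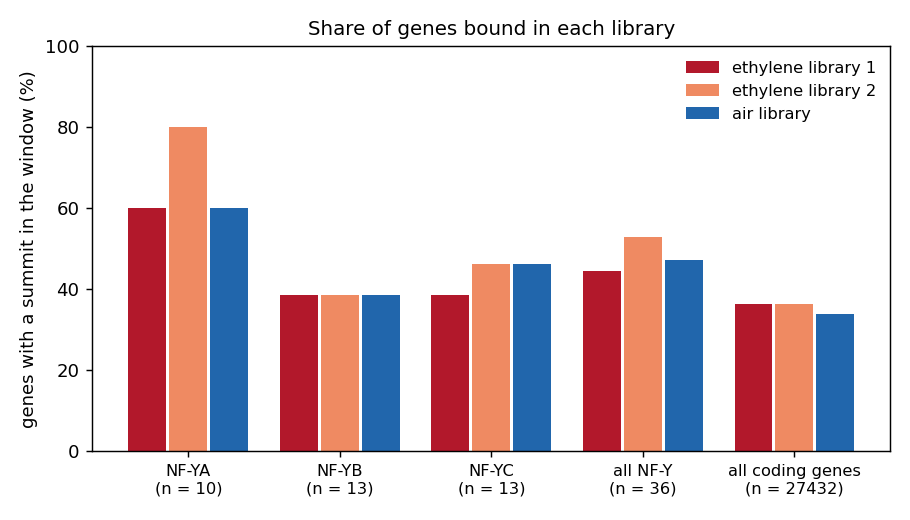
Bars give the percentage of genes with a summit in the window, for each subunit class, for all 36 NF-Y genes and for all 27432 coding genes, with ethylene libraries 1 and 2 left of air. NF-YA reaches 60, 80 and 60%, while NF-YB stays at 38.5% in each library.

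NF-YC2, whose protein has been found in a complex of the endoplasmic reticulum stress response, had the strongest site. Its peak ranked 4 of 9156 by fold in ethylene library 1, 38 of 9958 in ethylene library 2 and 4 of 8602 in air. The folds were 12.04, 7.54 and 8.03, and the scores 662.39, 444.14 and 468.73. The peak held 211 tags in ethylene library 1 (exact Poisson 95% interval 183 to 241), 220 in ethylene library 2 (192 to 251) and 275 in air (243 to 309). Such intervals cover counting error only. The air peak spanned chr1:21024215-21024986 (TAIR10), and the 3 summits lay within 31 bp of each other. All summits fell 66 to 97 bp inside NF-YC2, from its end of lower coordinate. They also lay inside AT1G56180, which overlaps NF-YC2 there, and within the window of MYB72, a transcription factor gene of root iron responses. The data do not tell to which of these genes the site belongs.

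NF-YA9, a DNA-binding subunit gene, held the second site of this rank, and no other coding gene shared it. Its peak had folds of 10.17, 7.09 and 5.63 in ethylene library 1, ethylene library 2 and air, with ranks of 22, 61 and 68. Tags numbered 166 (142 to 193), 196 (170 to 225) and 203 (176 to 233). In air the peak lay at chr3:7325979-7326736, and the summits sat 67 to 83 bp outside the gene, within 16 bp of each other. Ethylene library 2 had a weaker second summit 924 bp outside the gene, at 3.56-fold, closer to AT3G20900. Its relative NF-YA1, which acts in embryo development, lacked a summit in ethylene library 1. At NF-YA1, ethylene library 2 had 3 summits with folds of 3.03, 3.37 and 3.02, and the air library had 1 summit at 3.83-fold that shared a region with the second of them.

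**Figure D3:**
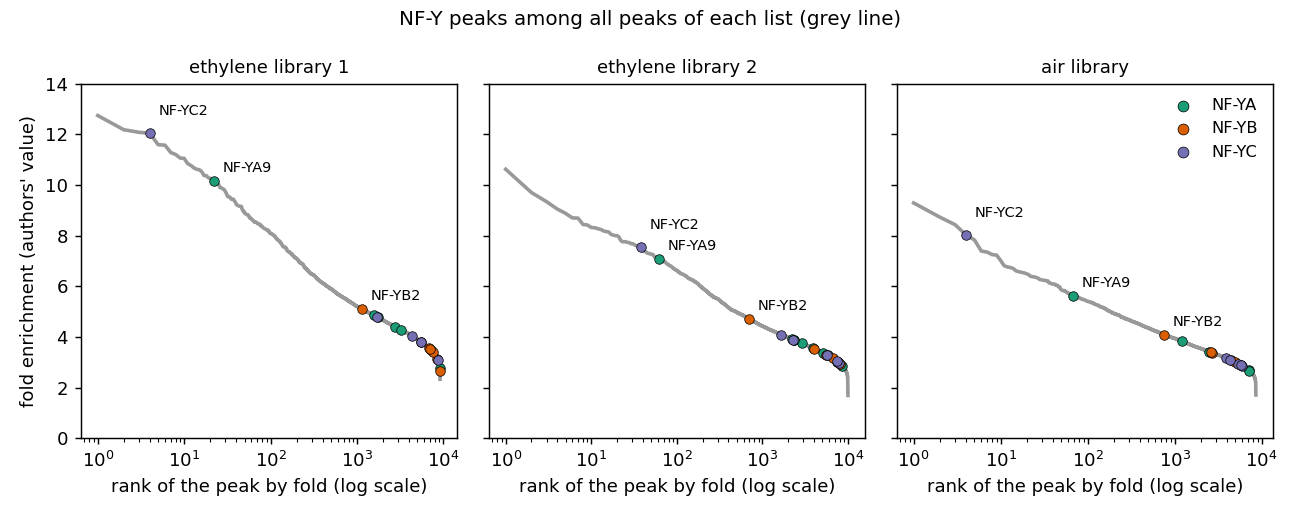
Each panel shows 1 library, ethylene left of air, with every peak of the list as a grey line of fold against rank on a log axis and NF-Y peaks as points coloured by subunit. NF-YC2 and NF-YA9 stand among the top 100 peaks in each panel, NF-YB2 follows at ranks of 1136, 697 and 750, and most other NF-Y peaks lie in the dense right-hand part.

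NF-YB2, which with NF-YB3 promotes flowering in long days, had the strongest NF-YB site. Its peak had folds of 5.1, 4.71 and 4.09 in ethylene library 1, ethylene library 2 and air, at percentiles of 87.5, 93.0 and 91.2. It was broad and deep in tags, with 232, 315 and 476 tags over 1025, 1082 and 1469 bp. The air peak lay at chr5:19308066-19309534 (TAIR10). Summits lay 185 to 230 bp outside the gene, and the air summit also fell in the window of AT5G47635. NF-YB6 (L1L), a relative of LEC1 that lies close by on the same chromosome, was not bound. NF-YB3 itself had folds of 3.79, 3.53 and 3.08 at 1 gene end, near the middle of each list, and a second summit at the other end in ethylene library 1 alone, at 3.14-fold.

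The remaining NF-YA genes bound in all libraries were NF-YA3, NF-YA4, NF-YA7 and NF-YA10. NF-YA3 had folds of 4.77, 3.9 and 2.69 in ethylene library 1, ethylene library 2 and air. In ethylene library 1 a weaker second NF-YA3 peak lay in the same region, at 2.79-fold, with its summit nearer to AT1G72840. NF-YA4, whose protein has been found with NF-YC2 in the stress complex named above, had folds of 4.41, 3.88 and 2.88. For NF-YA7 they were 4.27, 3.88 and 2.67. By the fold of their strongest peaks, these 3 genes shared mid to upper ranks in both ethylene lists and a low rank in air. NF-YA10, which with NF-YA2 is known to affect leaf and root growth, had folds of 4.85, 3.28 and 3.42, without such an order. Every NF-YA7 summit also lay in the window of RFNR2, and every NF-YA3 summit in that of AT1G72840. No other coding gene shared the summits of NF-YA4 and NF-YA10.

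Of the other NF-YB and NF-YC genes bound in all libraries, none had a peak among the 500 of highest fold in any list. NF-YB1, which has been linked to drought tolerance, had folds of 3.56, 2.95 and 3.38 in ethylene library 1, ethylene library 2 and air. NF-YB11 had 3.4, 3.3 and 3.39. NF-YC4, which acts with NF-YC3 and NF-YC9 in flowering and in the inhibition of hypocotyl growth by light, had 4.79, 3.29 and 2.86. NF-YC10, a partner of the heat and drought regulator DREB2A, had 3.09, 3.05 and 2.88, at low percentiles of 5.99, 25.7 and 31.5. NF-YC11 had 4.04, 4.09 and 3.1. The NF-YC10 summits were nearer to the neighbouring gene AT1G07985 in every library, and those of NF-YC4 were nearer to AT5G63460 in ethylene library 1 and in air. The NF-YB11 summit of ethylene library 1 was nearer to AT2G27480.

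At all 13 NF-Y genes bound in every library, the 3 summits belonged to 1 merged region. Among all coding genes bound in every library this held for 5378 of 5804. The summits of the NF-Y sites spread over 16 to 153 bp, with a median of 60 bp, against a median of 97 bp for all such genes.

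Within these shared sites, the rank in both ethylene lists was above the rank in air for 6 genes, NF-YA3, NF-YA4, NF-YA7, NF-YA9, NF-YC4 and NF-YC11. It was below it for 3 genes, NF-YB1, NF-YB11 and NF-YC10. Over the 5378 coding genes with a shared site the shares were 37.4% above and 31.7% below. NF-YA3 differed most, at percentiles of 80.8 and 77.4 in the ethylene lists and 16.5 in air. For ethylene library 1 the stronger NF-YA3 peak of the region was used, and the weaker peak there stood at 1.15. The air peak covered the summits of both. NF-YA7 stood at 64.5 and 76.6 in ethylene and 15.3 in air, and NF-YA4 at 70.0 and 76.6 in ethylene and 31.5 in air. A mean ethylene percentile at least as far above air was seen at 1.77% of the 5378 genes for NF-YA3, 3.55% for NF-YA7 and 8.55% for NF-YA4. These NF-YA genes were picked for this comparison after their values were seen. In the other direction, NF-YB1 stood at 26.0 and 18.9 in ethylene and 68.5 in air, and NF-YB11 at 17.4 and 43.7 in ethylene and 69.2 in air. A mean ethylene percentile at least as far below air was seen at 4.93% of the 5378 genes for NF-YB1 and 8.13% for NF-YB11. Both were likewise picked after their values were seen. By score in place of fold, 7 NF-Y genes ranked above air in both ethylene lists and 5 below (39.8 and 30.2% of the 5378 genes). NF-YA10 was among those below by score, at 75.2 and 35.7 in ethylene and 90.9 in air. By summit height, 5 ranked above and 5 below (31.6 and 33.3%). The 3 NF-YA genes ranked higher in both ethylene lists by these measures too, but their air ranks then lay above the middle of the list. By score, their air percentiles were 52.2 for NF-YA3, 50.4 for NF-YA4 and 52.6 for NF-YA7. By summit height NF-YA3 stood at 89.5 and 92.2 in ethylene and 64.3 in air, and NF-YA7 at 79.1 and 86.1 in ethylene and 64.3 in air. NF-YA4 differed little by height, at 89.5 and 90.6 in ethylene and 86.5 in air. NF-YB1 and NF-YB11 ranked lower in both ethylene lists by these measures too, though by score they were closer to air, NF-YB1 at 54.7 and 45.9 in ethylene and 57.9 in air, and NF-YB11 at 55.5 and 54.7 in ethylene and 63.9 in air. The air peaks of NF-YA3 and NF-YA7 were wide, at 1231 and 1122 bp, against 587 to 897 bp for the ethylene peaks in the same regions. At NF-YA4 the air peak was narrower than the ethylene peaks, at 775 bp against 824 and 828 bp. Wide air peaks also occurred at NF-YB1 and NF-YC10, which ranked higher in air, at 1097 and 1043 bp. Their ethylene peaks spanned 518 and 524 bp at NF-YB1 and 585 and 626 bp at NF-YC10. Air peaks were wider over the whole list, with a median of 673 bp, against 488 bp in each ethylene list. The part of peak width, or of the split NF-YA3 peak, in these ranks was not tested.

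**Figure D4:**
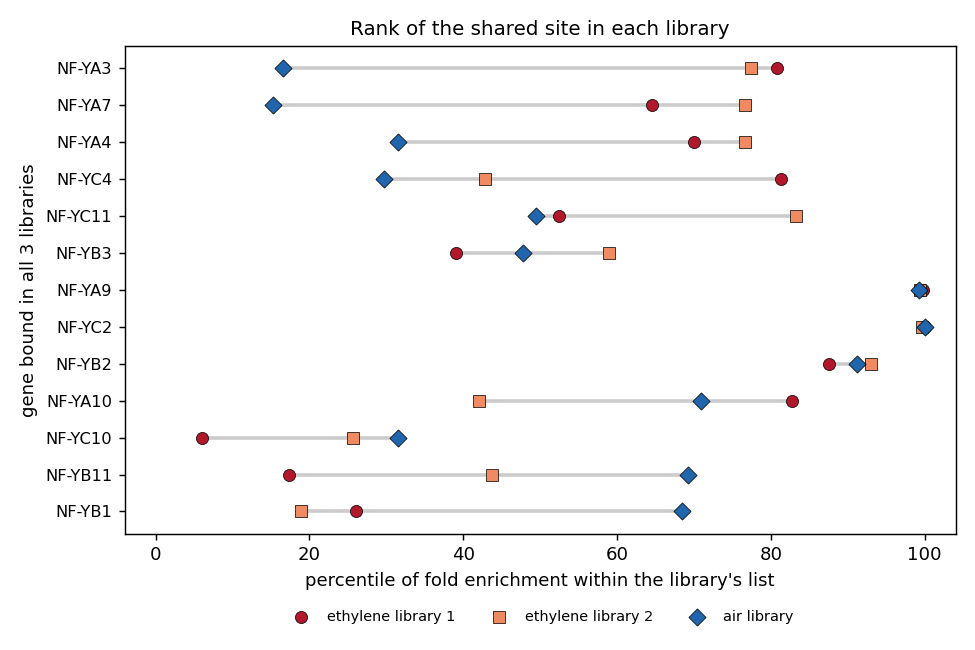
Each row is 1 of the 13 NF-Y genes with a site shared by all libraries, sorted by mean ethylene minus air percentile. Circles and squares give the percentile of the fold in ethylene libraries 1 and 2, and diamonds that in air. NF-YA3, NF-YA7 and NF-YA4 have the air diamond far to the left, while NF-YB1 and NF-YB11 have it to the right.

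With all peaks kept, calls in both ethylene libraries but not in air were about as frequent among NF-Y genes as among all coding genes. NF-YA8, which with NF-YA3 is known to act in the early embryo, and NF-YC9 were bound in both ethylene libraries and not in air (5.56% of NF-Y genes, against 5.94% of all coding genes). The NF-YA8 peak had folds of 3.47 and 2.86 in the ethylene libraries, at percentiles of 21.3 and 13.7, and the nearest air summit lay 8711 bp from the gene. Its summits lay 427 to 460 bp outside NF-YA8 and nearer to MYA1, a myosin gene. At NF-YC9 the ethylene libraries did not share a site. Ethylene library 1 had a summit at the end next to AMI1, at 3.8-fold with 43 tags. The summit of ethylene library 2 lay at the end next to CAX11, at 3.89-fold with 124 tags. By score, the peak of ethylene library 1 stood at percentile 1.87 of its list and that of ethylene library 2 at 60.9.

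In air and neither of the ethylene libraries, NF-YB10 was bound at 3.0-fold and NF-YC1 at 2.95-fold (5.56% of NF-Y genes, against 4.63% of all coding genes). By fold, both air peaks ranked below the middle of the list, at percentiles of 41.9 and 37.3. They stood at 31.7 and 33.5 by score and at 4.13 and 14.5 by summit height. Neither call was kept at a minimum score of 100. NF-YC3 and NF-YA1 were bound in air and ethylene library 2 (5.56% of NF-Y genes, against 8.08% of all coding genes bound in air and 1 ethylene library). NF-YC3 was bound at 2.99-fold in ethylene library 2 and 3.16-fold in air, in the same region, with summits nearer to AT1G54820. The scores of these NF-YC3 peaks were low, at percentiles of 3.12 in ethylene library 2 and 13.2 in air. In a single ethylene library, NF-YA6 was bound at 3.75-fold and NF-YB13 at 3.15-fold in library 2. NF-YB12 was bound in library 1 at both gene ends, at 2.65-fold and 3.51-fold. By fold, NF-YA6 stood at percentile 70.6, NF-YB13 at 32.4 and the NF-YB12 peaks at 0.366 and 23.2. These 3 genes make up 8.33% of the NF-Y genes, against 10.4% of all coding genes called in 1 ethylene library alone.

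The 14 NF-Y genes bound in no library were NF-YA2, NF-YA5, NF-YB4 to NF-YB9, NF-YC5 to NF-YC8, NF-YC12 and NF-YC13. Among them are LEC1 (NF-YB9) and L1L (NF-YB6), which act in embryos, and NF-YA5, known for its role in drought. No deposited peak overlapped the windows of these genes in any library. For NF-YA2, the nearest summits lay 2580 and 2553 bp away in the ethylene libraries and 2638 bp away in air. For the neighbours NF-YC5, NF-YC6 and NF-YC7, which lie side by side on chromosome 5, the genes shared 1 nearest peak in each library, with its summit 17915 to 23379 bp from them. Among these 14 genes, the summits closest to the window limit were those near NF-YB6, NF-YA5 and NF-YC13. NF-YB6 had its nearest summits at 1407 and 1369 bp in ethylene libraries 1 and 2 and at 1946 bp in air. For NF-YC13 the distances were 1472 and 1488 bp in ethylene and 6428 bp in air, and for NF-YA5 they were 1977 and 1438 bp in ethylene and 2051 bp in air. Among bound genes, the one whose nearest summit lay farthest out was NF-YA8, at 460 bp in ethylene library 1. The deepest summit inside a gene was that of NF-YB10, at 103 bp in air.

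Most NF-Y summits lay close to a gene end. Within 250 bp of an end lay 73.7% of the 19 summits in ethylene library 1, 68.2% of the 22 in ethylene library 2 and 82.4% of the 17 in air. Over all pairs of a coding gene and a summit in its window the shares were 64.1, 62.5 and 64.7%. Narrowing the window to 500 bp outside the gene lost no bound NF-Y gene in any library, while the share of all coding genes bound was then 30.1, 30.0 and 27.9%. Many summits also fell in the window of a neighbouring gene, namely 13 of 19, 16 of 22 and 13 of 17 in ethylene library 1, ethylene library 2 and air. Such sharing was common over the genome, at 68.1, 64.7 and 67.5% of the pairs of a coding gene and a summit. In these shares a shared summit counts for each of its genes. When each summit was given to its nearest gene alone, 11, 16 and 14 NF-Y genes stayed bound, with 24.0, 24.5 and 22.2% of all coding genes. Genes tied as nearest to a summit all kept it, as NF-YC2 and AT1G56180 did.

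**Figure D5:**
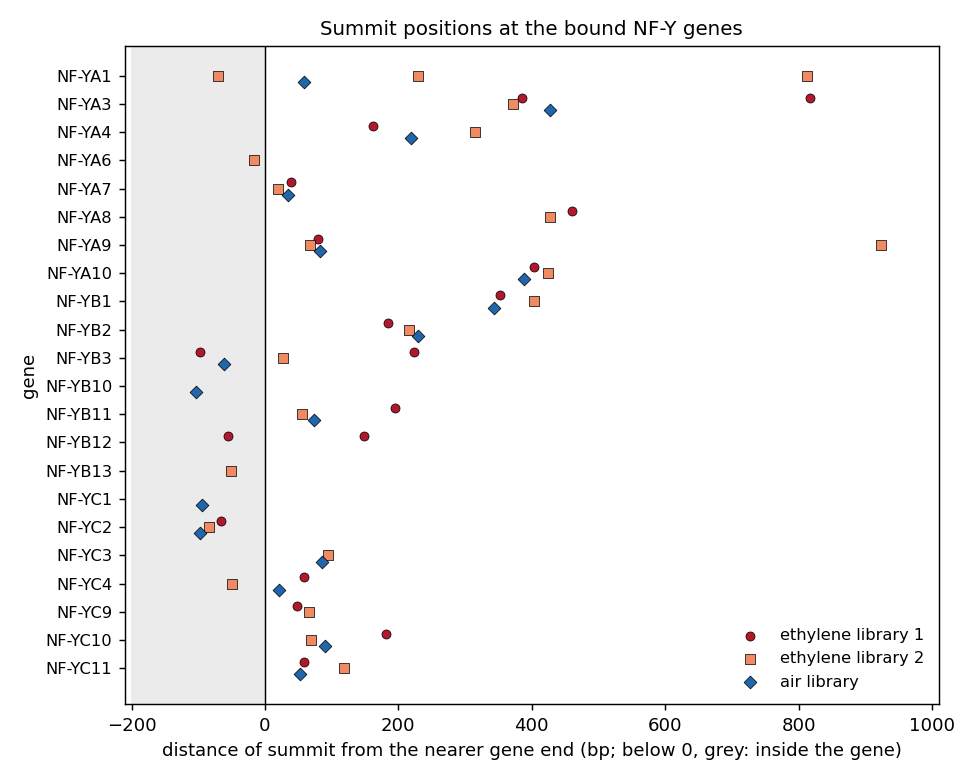
Each row is 1 of the 22 NF-Y genes bound in at least 1 library, and each mark is a summit at its distance in bp from the nearer gene end, with negative values and grey shading for the inside of the gene. Circles, squares and diamonds stand for ethylene library 1, ethylene library 2 and air. Most marks lie within 250 bp of an end. Marks at like distances can belong to opposite ends of a gene, as for NF-YC9.

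Genes around NF-Y were examined from a list of 20 proteins that act with NF-Y subunits or genes that NF-Y regulates, of which 18 matched a single gene. Of these, each ethylene library bound 11 (61.1%) and the air library 9 (50.0%), against the 36.3, 36.4 and 33.9% of all coding genes given above. In all libraries 8 were bound (44.4%, against 21.2%), and the 6 with the smallest summed fold ranks follow. HSFA3, a heat stress factor gene, led them with folds of 6.49, 4.52 and 4.17 in ethylene library 1, ethylene library 2 and air (ranks 292, 875 and 664). ABI5, which encodes an abscisic acid response factor, had 4.88, 5.54 and 4.09 (ranks 1512, 281 and 750). HY5, a promoter of seedling development in light, had 4.0, 3.31 and 4.72, with a far higher rank in air (4510, 5506 and 271). LEC2, an embryo regulator, had 4.5, 3.55 and 3.14 (ranks 2427, 3919 and 4049). ABF3, of abscisic acid signalling, had 3.53, 3.87 and 3.76 (ranks 6910, 2349 and 1354). The flowering gene SOC1 had 4.28, 3.48 and 2.98 (ranks 3182, 4356 and 5146). The gibberellin signalling repressor gene GAI and the histone demethylase gene REF6 were bound in both ethylene libraries and not in air (11.1% of the 18, against 5.94% of all coding genes). CO, a partner of NF-Y in flowering, and its target FT were bound in no library, nor were ABI3, RGL2, HDA15 and FUS3 (33.3% of the 18, against 49.8%).

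The microRNA miR169 directs the cleavage of NF-YA transcripts. None of its 14 loci had a summit within 1000 bp in any library, against 59 of 312 other microRNA loci in ethylene library 1 (18.9%), 57 in ethylene library 2 (18.3%) and 60 in air (19.2%). The 14 loci are not independent, because MIR169i to MIR169n form a cluster on chromosome 3 and MIR169d and MIR169e are neighbours on chromosome 1.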

How the data were processed

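Per the submitters' processing notes, BWA aligned the reads to TAIR10. Per the file headers, MACS 1.4.2 called peaks in each ChIP library, with its treatment's input as control, a p cutoff of 1e-05 and 1 tag kept per position. Both ethylene lists share 1 input. Tags per peak are deposited counts. The deposited score is 10 times the negative log10 of a p-value. Fold enrichment, a ratio to local background, and the FDR in percent are the authors' own. Summit height is a deposited signal, the tag pileup. In the headers, run names carry DAZ3L in place of TREE1, with no statement of whether both name 1 gene, and the air run is numbered 2. Duplicates made up 53.7 and 48.6% of the ethylene tags and 49.7% of the air tags.

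Gene names and positions came from RefSeq's TAIR10.1 table, which holds no strand or sequence. As a check of its positions, summits were shifted by up to 2000 bp. Unshifted summits overlapped coding genes least in 15 of 15 combinations of library and chromosome. None of its coordinates is printed. The planned motif search was not run. Everything else was computed with Python 3.11.15, numpy 2.4.6, pandas 2.3.3 and scipy 1.17.1, and figures were drawn with matplotlib 3.10.9. Percentiles are mid-ranks within a list. Merged regions join peaks sharing at least 1 bp. The gene caller was tested on simulated data.

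The members and lists were chosen with earlier results of these data known. Every NF-Y gene is named, with fullest values for those above the median fold of every list or with calls that differ between treatments. Up to 6 listed partners bound in all libraries are named by summed fold rank. GAI and REF6, and the partners bound in no library, were named after their calls were seen. Whether the ethylene replicates came from separate seedlings is not given.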

Additional observations from a re-analysis of the deposited data

How the results depend on the processing

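Across the alternatives tried, 91 of 115 recomputed values stayed within 1.5 times the reported count. A minimum score of 100 left 8, 9 and 6 NF-Y genes bound in ethylene library 1, ethylene library 2 and air. It left 7 in both ethylene libraries (19.4%, against 9.93% of all coding genes) and 3 in all libraries (8.33%, against 6.52%). The genes bound in both ethylene libraries without air then numbered 4 (NF-YA3, NF-YA4, NF-YA7 and NF-YB3), each with an air peak of lower score (11.1%, against 3.41% of all coding genes, where the reported setting gave 5.56% against 5.94%). At that score NF-YA kept 4 genes in ethylene library 2, 3 in air and 1 in all libraries, NF-YB kept 2, 2 and 1 in ethylene library 1, ethylene library 2 and air and 1 in all, and NF-YC kept 1, 3 and 2 and 1 in all. Assigning each summit to its nearest gene, or to all genes tied as nearest, left 10 NF-Y genes bound in all libraries (27.8%, against 11.5% of all coding genes). Of the NF-YC genes it left 2 in ethylene library 1 (15.4%, against 24%), 3 in air (23.1%, against 22.2%) and 2 in all libraries (15.4%, against 11.5%). It left 0 NF-Y genes in both ethylene libraries without air (4.41% of all coding genes). Lists of equal length left 1 gene in that class, NF-YA8 (2.78%, against 4.74% of all coding genes). Leaving out ethylene library 1 gave 19 genes bound in ethylene (52.8%, against 36.4% of all coding genes). Leaving out ethylene library 2 gave 16 (44.4%, against 36.3%). With both required there were 15 (41.7%, against 27.1%), and dropping a requirement can only raise such counts by construction. Ranking the shared sites by score or by summit height, settings chosen after seeing the data, put 5 genes below air in both ethylene lists by either measure, against 3 by fold. Fewer peaks or fewer genes per summit account for the lower counts by construction, and the cause of the change with the ranking measure was not tested. No paired analysis was possible because air had 1 library. Ethylene library 1 had the fewest tags but a longer list than air, at 9156 against 8602 peaks, and the effect of depth on calls was not tested.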
